A study of Mus musculus with 22 samples.

Results

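The Endothelium cells of mouse gastruloids were the 303 cells that the authors' deposited cell table assigns to the cluster of that name, out of 77674 cells of the table for which a count matrix was read. They made up 0.39% of these cells, place 3 of 25 clusters from the smallest. Gastruloids are aggregates of embryonic stem cells that form derivatives of the germ layers in culture. All came from the unmodified mouse line E14Tg2A, a single line, seeded at 300 cells per well, allowed to aggregate over 48 h and then treated with CHIR99021 at 3 µM, which turns on Wnt signalling by blocking GSK3. Cells were profiled with 10x 3′ single-cell RNA sequencing at days 3, 3.5, 4, 4.5 and 5. In MULTI-seq the cells of each gastruloid are tagged with a DNA barcode before pooling, so that a cell can be assigned to 1 gastruloid, called a Doublet (several barcodes) or called Negative (no clear barcode). The groups with barcodes were MULTI-seq 1 (24 gastruloids of day 5), MULTI-seq 2 pool B (11 of day 4 and 12 of day 4.5 with at least 30 cells) and MULTI-seq 3 (24 of day 3, 16 each of days 3.5, 4, 4.5 and 5). No gastruloid calls were available for a 10x experiment of days 3 and 4 and for pool C of MULTI-seq 2. Up to 32 gastruloids judged representative were picked by the experimenters at each collection. The gastruloids are therefore neither a random sample of a plate nor biological replicates of more than 1 stem cell line.

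The endothelium lines blood vessels and arises in the embryo from mesoderm. The ETS-family factor ETV2 acts early and transiently in this lineage, KDR is the main receptor for VEGF-A and marks the progenitors, and the junction protein VE-cadherin, encoded by Cdh5, marks cells that have become endothelial. Arterial, venous, endocardial and blood-forming branches are told apart by further genes such as those of the Notch pathway, Nr2f2, Nfatc1 and Runx1.

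Of the 303 cells, 236 were assigned to a gastruloid, 23 were called Negative, 18 were called Doublet and 26 came from lanes without calls. Endothelium cells were found in 47 of 136 gastruloids. No cell barcode was shared between 2 of the 303 cells, although 732 barcodes of the whole table occurred in more than 1 lane and 6 Endothelium barcodes also occurred in another lane under another cluster. The median Endothelium cell held 22577 UMIs (unique molecular identifiers, counts of captured transcripts), against 24617 in Late Spinal Cord and 24464.5 in Cardiopharyngeal Mesoderm. By experiment the median was 13575 in MULTI-seq 1, 24411.5 in MULTI-seq 2 pool B and 31706 in the MULTI-seq 3 pool of days 4.5 and 5. Lanes, which are technical splits of a pool, held 64703013 to 307883815 UMIs over all barcodes.

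Levels of the 4 markers were compared with those of the other 24 clusters as CPM, counts scaled to a total of 1000000, of the UMIs summed over all cells of a cluster. The clusters were built on these genes, so these contrasts describe the cluster and no test was made. Kdr stood at 487 CPM (exact 95% Poisson interval 472 to 502, for counting error only), against 68.2 CPM in Late Nascent Mesoderm, the next cluster. Etv2 stood at 305 CPM against 12.2 CPM, again in Late Nascent Mesoderm. Cdh5 was at 141 CPM against 1.53 CPM in Mature Endoderm. Pecam1, which encodes the adhesion protein CD31, was low at 21.7 CPM and equal to its level of 21.7 CPM in the primordial germ cell cluster (PGCs). After each cell was thinned to 4000 UMIs, a Kdr UMI was found in 76.1% of Endothelium cells and in 0.0765% of Late Spinal Cord cells, which should lack it (91.1% and 0.426% before thinning). The same shares were 48.9% and 2.12% for Etv2 and 32.9% and 0.0107% for Cdh5. The markers thus bear out the cluster's name for most of its cells, with the exception described next.

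A minority of the cells carried no marker at all. Of the 303 cells, 25 (8.25%) held no UMI of Kdr, Cdh5, Pecam1 or Etv2, while 5 cells had UMIs of 1 marker, 95 of 2, 114 of 3 and 64 of all 4. Of the 25 cells 20 were assigned, to 13 gastruloids, none was called a Doublet, and their median of 14498 UMIs was below the 23793.5 of the other cells. In the authors' own mapping to embryo cell types none of the 25 received an endothelial name, and 20 of them were among the 22 Endothelium cells mapped to Sclerotome, the part of the somite that forms vertebrae and ribs. Col3a1, a fibrillar collagen, was at 1127 CPM in the 25 cells and at 6.43 CPM in the others. The values were 495 and 4.76 CPM for Fabp7, a fatty acid binding protein, 205 and 3.1 CPM for the zinc finger factor Zic1, and 323 and 12.5 CPM for the forkhead factor Foxd1. Over all clusters Fabp7 (577 CPM) and Zic1 (27.7 CPM) were highest in Late Neurectoderm, and Foxd1 (279 CPM) in Somites. Across 10773 genes the levels of the 25 cells correlated most with Mature Somites (r of log levels 0.898). The correlation with Head Mesoderm was 0.888, as a description across genes, which are not independent. The other Endothelium cells also correlated most with Mature Somites (r = 0.889), and with Head Mesoderm at 0.883. This ranking therefore does not set the 25 cells apart. Because of the 25 cells, gene comparisons were also run on the 276 cells with endothelial, endocardial or haematoendothelial names, or the name EMP (1 cell). Shares were also taken without cells that lack a marker UMI, and for all cells with such a name, in or outside the cluster. These results are given below where they changed. Conversely, 27 cells outside the cluster received such a name, 11 of them in Cardiopharyngeal Mesoderm. In those 27 cells Kdr was at 568 CPM and Etv2 at 715 CPM, but Cdh5 at 5.13 CPM.

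The 15 genes of at least 50 CPM with the highest ratio to any other cluster were Ctla2b, Ctla2a, Clec1b, D030007L05Rik, Emcn, Icam2, Tie1, Gimap6, Hapln1, Esam, Kcne3, Cdh5, Sox18, Tal1 and Tek. Ctla2a, a relative of cathepsin pro-peptides, was at 485 CPM and at 0.148 CPM in Mature Somites, the next cluster. Emcn, the sialomucin endomucin, was at 141 CPM against 0.245 CPM, also in Mature Somites. Tie1, an orphan receptor of the angiopoietin system, was at 50 CPM against 0.0931 CPM in Mature Endoderm. Hapln1, a link protein of hyaluronan matrix known from the endocardium, was at 300 CPM against 1.69 CPM in Caudal Epiblast. Tal1, a bHLH factor shared by blood and endothelium, was at 83.3 CPM against 1.04 CPM in Cardiopharyngeal Mesoderm. These genes were picked for their ratio, which is a description.

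**Figure D1:**
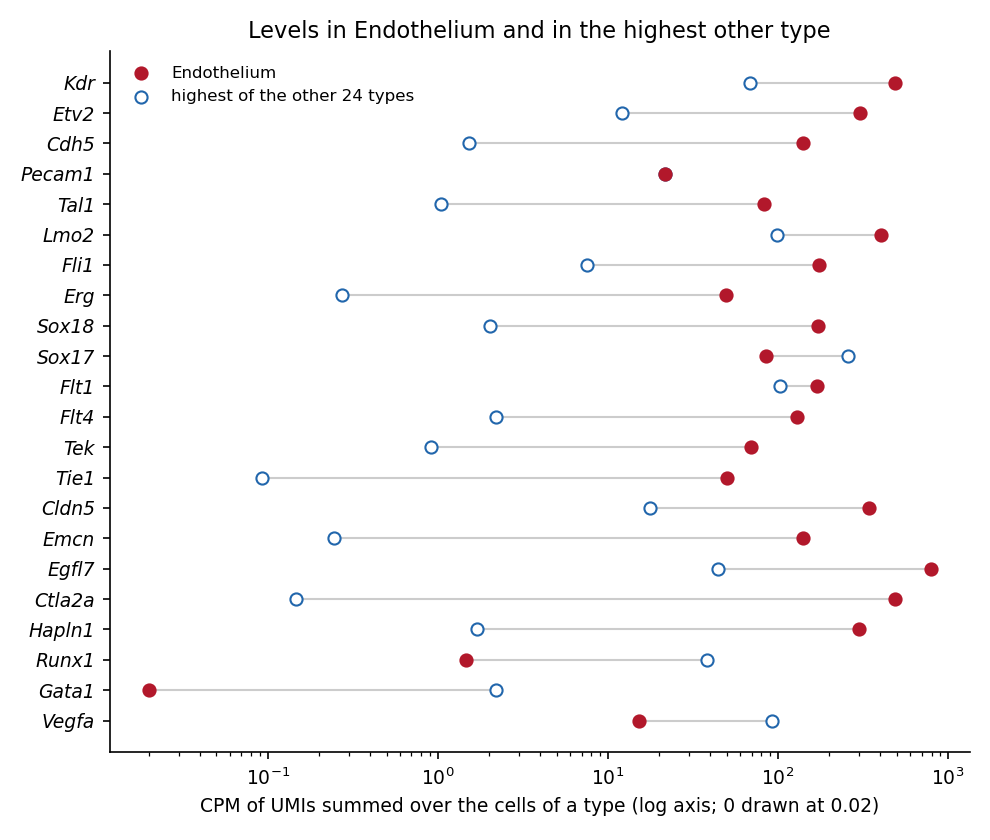
CPM of UMIs summed over the cells of a cluster, on a log axis, for Endothelium (filled) and for the highest of the other 24 clusters (open), for 22 genes, with a level of 0 drawn at 0.02. Kdr, Etv2 and Cdh5 lie to the right of any other cluster, Pecam1 coincides with PGCs, and Sox17, Runx1, Gata1 and Vegfa are lower in Endothelium than in another cluster.

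ETS factors bind a GGAA core, and windows upstream of genes were read for longer hexamers that hold it, as a description of the sequence, not of binding. The hexamers AGGAAG and CGGAAG were searched on both strands in the 250 bases before each transcription start given by RefSeq for GRCm38.p6, the assembly also called mm10. Such a match occurred in 39.2% of all 32851 windows. Of the 15 leading genes 10 had a window, 6 of these 10 held a match in at least 1 window and 4 held at least 2 matches. Of all 27025 genes with a window the shares were 42.5% and 12.9%. The windows of 4 genes are printed 5′ to 3′ on the gene's strand, with matches in capitals, for Kdr and Etv2 as the markers with a window, and for Tie1 and Emcn as leading genes with 2 matches, picked after the matches were seen. The window of Tek, the receptor related to Tie1, holds none. They lie upstream of the first exon at chr5:75978456-75978705 for Kdr (minus strand), chr7:30635853-30636102 for Etv2 (minus strand), chr4:118489850-118490099 for Tie1 (minus strand) and chr3:137340828-137341077 for Emcn (plus strand). The Kdr window holds no match of these hexamers, although the shorter GGAA core occurs in it. The Etv2 window holds 1 match, at base -207 from the start. The Tie1 window holds 2, at -232 and -219, and the Emcn window holds 2, at -174 and -93.
Kdr: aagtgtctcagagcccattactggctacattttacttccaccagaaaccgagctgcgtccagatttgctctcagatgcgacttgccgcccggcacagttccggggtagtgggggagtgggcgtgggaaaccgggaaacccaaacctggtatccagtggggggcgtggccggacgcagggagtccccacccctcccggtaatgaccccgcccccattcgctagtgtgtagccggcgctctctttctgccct
Etv2: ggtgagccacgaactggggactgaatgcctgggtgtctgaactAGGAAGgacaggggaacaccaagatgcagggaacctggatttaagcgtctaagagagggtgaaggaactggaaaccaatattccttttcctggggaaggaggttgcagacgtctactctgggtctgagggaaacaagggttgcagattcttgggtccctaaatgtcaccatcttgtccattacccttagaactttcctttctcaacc
Tie1: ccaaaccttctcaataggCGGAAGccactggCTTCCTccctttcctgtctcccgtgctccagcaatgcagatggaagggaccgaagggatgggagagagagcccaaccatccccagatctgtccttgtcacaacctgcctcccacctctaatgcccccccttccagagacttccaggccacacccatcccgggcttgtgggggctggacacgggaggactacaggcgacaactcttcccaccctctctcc
Emcn: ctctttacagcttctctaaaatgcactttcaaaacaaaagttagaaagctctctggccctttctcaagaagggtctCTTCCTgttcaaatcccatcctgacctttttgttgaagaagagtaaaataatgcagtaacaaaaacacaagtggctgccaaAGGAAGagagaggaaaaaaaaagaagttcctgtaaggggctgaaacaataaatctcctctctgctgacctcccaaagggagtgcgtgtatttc

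Among 20 endothelial transcription factors, 14 were higher in Endothelium than in any other cluster, against 9.01% of all 27114 genes with a UMI and 15% of the 7682 genes of at least 10 CPM in Endothelium. Lmo2, a partner of Tal1 in blood and vessel progenitors, was at 401 CPM and at 98.1 CPM in Late Posterior PSM (presomitic mesoderm). Fli1 and Erg, ETS factors of the mature lineage, were at 175 and 49.7 CPM. Sox18 was at 171 CPM and Sox7 at 30.4 CPM, while Sox17, of the same SOX group and also an endoderm gene, was at 84.9 CPM against 259 CPM in Mature Endoderm. Foxc1, Foxc2, Tcf15 and Meox2 were higher in presomitic or somite clusters, and Ets2 in neuromesodermal progenitors (NMPs).

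The receptors and ligands of the VEGF and angiopoietin systems were split between clusters. All 8 receptors and co-receptors measured (Kdr, Flt1, Flt4, Tek, Tie1, Nrp1, Nrp2, Plxnd1) were highest in Endothelium. The margin ran from a ratio of 1.09 for Nrp1, which many mesoderm clusters express, to 59.1 for Flt4, the VEGF-C receptor, and more for Tie1 and Tek. None of the 7 ligands was highest in Endothelium. Vegfa, the ligand of Kdr, was at 15.3 CPM in Endothelium, which put it in place 14 of 25 clusters, and at 92.5 CPM in Somites. Angpt1 and Angpt2, ligands of Tek, were at 0.908 and 3.18 CPM.

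Of 20 junction and surface genes, 18 were highest in Endothelium, led in level by Egfl7 at 790 CPM (44.7 CPM in PGCs), Ramp2, a partner of the adrenomedullin receptor, at 692 CPM and the tight-junction claudin Cldn5 at 344 CPM. The exceptions were Pecam1 and Clec14a, which had 1 UMI. Basement membrane genes were highest here for 7 of 12, including Lama4 at 33.7 CPM (1.17 CPM in Mature Endoderm) and Nid1 at 70.7 CPM. Of 5 shear and flow genes 2 were highest in Endothelium, and the list summed to 119 CPM here and 273 CPM in PGCs. Among them Nos3, the nitric oxide synthase gene of endothelium, was at 40.2 CPM against 2.19 CPM in the Primitive Streak cluster.

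Branch markers were uneven. Venous genes were highest in Endothelium for 4 of 8, and the venous factor Nr2f2 stood at 102 CPM, second to Mature Somites with 161 CPM. Arterial genes were highest for 3 of 13: Dll4, the Notch ligand of arteries and tip cells, was at 10.4 CPM, Hey2 at 9.87 CPM, the connexin gene Gja5 had 1 UMI and Bmx none. Of 10 endocardial genes 3 were highest, Nfatc1 at 14 CPM, Npr3 at 17.4 CPM and Hapln1, while the cardiac factor Gata5 had no UMI. Prox1, the lymphatic regulator, was at 18.7 CPM and the hyaluronan receptor Lyve1 had 6 UMIs.

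The 20 haematopoietic and erythroid genes summed to 93 CPM in Endothelium, against 68.3 CPM in Mature Endoderm, the next cluster. Of them 6 (30%) were highest in Endothelium and 7 had no UMI, among them Gata1, Ptprc, Hba-x and Hbb-bh1, which allows up to 0.418 CPM by the exact 95% Poisson bound. Runx1, which marks blood-forming endothelium, was at 1.47 CPM against 38.3 CPM in Somites. Itga2b, which encodes CD41 of early blood progenitors, was at 18.9 CPM against 0.528 CPM in Head Mesoderm, and Kit was at 45.7 CPM against 53.8 CPM in Mature Endoderm.

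Marker lists of other cell types the cluster could hold were summed in the same way. They do not hold Col3a1, which at 59.1 CPM was higher in Endothelium than in any other cluster, through the cells without a marker UMI. The summed level of 8 somite and presomitic genes was 68 CPM, within a range of 25.9 to 1969 CPM over the other clusters. The sums were 77.4 CPM for 8 neural genes (46.4 to 2683), 16.4 CPM for 8 endoderm genes (8.38 to 5307) and 10.7 CPM for 7 pluripotency and germ cell genes (4.49 to 4546). The sum of 12 mesoderm progenitor genes was 43.9 CPM (4.08 to 511). None of these lists had a member that was highest in Endothelium. Nor was any of 15 Hox genes of paralogous groups 1 to 5 or of 20 of groups 6 to 13, and the latter summed to 27.3 CPM against up to 1418 CPM in Early Spinal Cord. In the authors' cell-cycle calls, G1 was given to 47.7% of Endothelium cells in MULTI-seq 1 and 33.4% of the other cells, and to 49.7% and 25.7% in the MULTI-seq 3 pool of days 4.5 and 5. In MULTI-seq 2 the shares were 70% and 34.9% in pool B and 45% and 36.1% in pool C, and in the 10x day 4 lane, with 6 Endothelium cells, 33.3% and 42.4%. The MULTI-seq 3 pool of days 3.5 and 4 held 2 Endothelium cells, 1 of them in G1. Of 18 cell cycle genes 1, Cdk1, was highest in Endothelium, and 3 were above the median of the other clusters.

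The cells were not uniform. The authors' mapping placed 118 of the 303 with venous endothelium of the embryo, 87 with embryo proper endothelium, 34 with endocardium, 22 with allantois endothelium and 13 with haematoendothelial progenitors. The mapping used the same transcriptomes, so the levels by name are a description without a test. The names were unevenly spread over experiments and days, from which these levels are not separated. MULTI-seq 2 pool C gave 7 of the 13 haematoendothelial cells. Embryo proper endothelium made up 53.3% of Endothelium cells in MULTI-seq 2 pool B and 27.4% in the MULTI-seq 3 pool of days 4.5 and 5. All 6 Doublets of MULTI-seq 2 pool B had this name. Among cells assigned to a gastruloid at day 4.5 it was given to 10 of 24 in MULTI-seq 2 and 5 of 12 in MULTI-seq 3. At day 5 it was given to 21 of 77 in MULTI-seq 1 and 28 of 122 in MULTI-seq 3. Etv2 was at 717 CPM in cells mapped to embryo proper endothelium and 549 CPM in those mapped to haematoendothelial progenitors, but at 170 CPM in the venous and 130 CPM in the endocardial cells. Cdh5 ran the other way, with 36.3 and 17.4 CPM in the first pair and 193 and 290 CPM in the second. Kdr was between 362 and 660 CPM under the 5 such names with at least 13 cells, a narrower range than that of Etv2 or Cdh5.

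**Figure D2:**
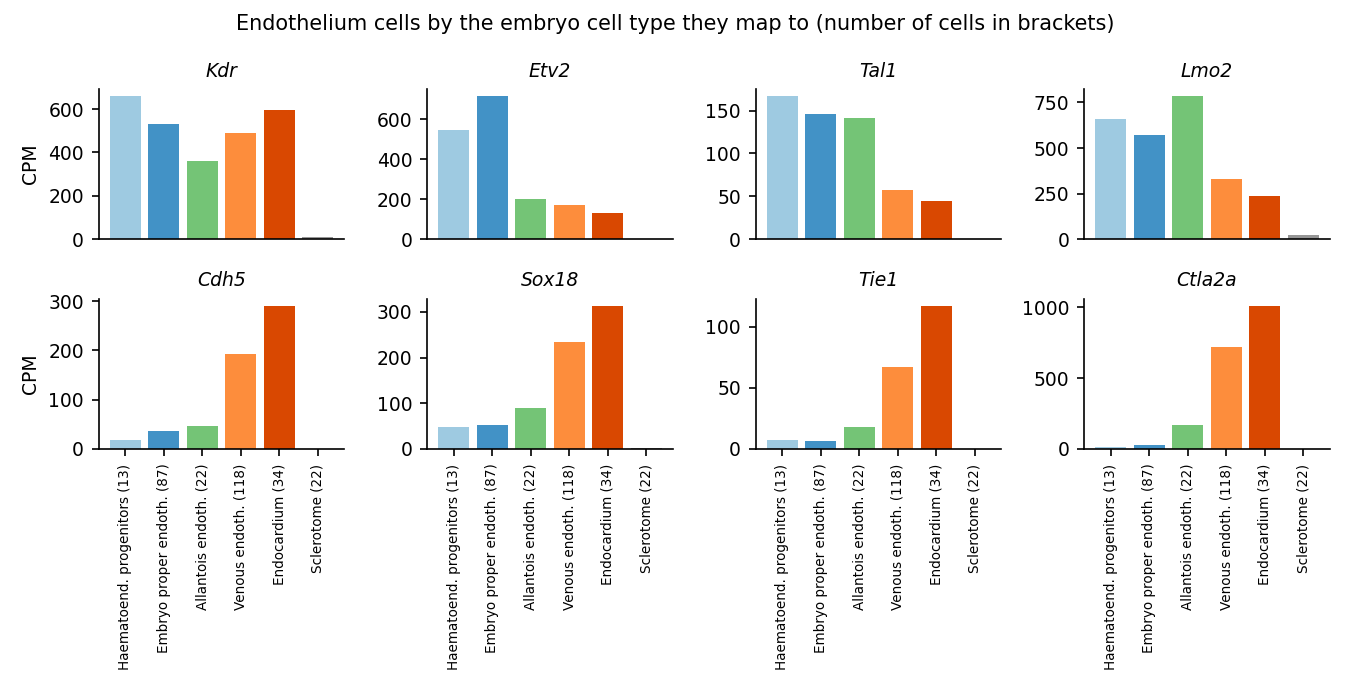
CPM of summed UMIs (bars, from 0) of 8 genes in the Endothelium cells of each embryo name, with the number of cells in brackets. Etv2, Tal1 and Lmo2 are low under the venous and endocardial names, where Cdh5, Sox18, Tie1 and Ctla2a are high, and the cells mapped to Sclerotome are low for all 8 genes, at most 20.7 CPM for Lmo2.

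Further genes divided in the same way. Tal1 was at 146 CPM in the cells mapped to embryo proper endothelium and 44.4 CPM in the endocardial cells, and Lmo2 at 571 and 235 CPM. Ctla2a was at 24.8 and 1010 CPM, Tie1 at 6.9 and 117 CPM, Sox18 at 53.4 and 313 CPM, and Pecam1 at 2.76 and 27.4 CPM. In allantois-mapped cells Etv2 was at 199 CPM and Cdh5 at 47 CPM, between the embryo proper and venous levels, whereas Lmo2 at 785 CPM and Kdr at 362 CPM lay outside them. Pecam1 was highest in the venous cells, at 33.6 CPM with a UMI in 39.8% of them. In matched embryo stage the median cell lay at E8.75, and 212 of 303 cells (70%) matched E8.75 or later.

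The presence of Endothelium by day was read from gastruloids, the units of replication. None of 5778 cells of the 24 day 3 gastruloids of MULTI-seq 3 was Endothelium, which allows a share of up to 0.0519%, nor any of 4679 cells at day 3.5 (up to 0.0641%). At day 4 there was 1 cell among 13750 in MULTI-seq 3 and none among 1510 in MULTI-seq 2 (up to 0.199%), while 6 of 2440 cells (0.246%) were Endothelium in the day 4 lane of the 10x experiment. At day 4.5 of MULTI-seq 2 the share per gastruloid ran from 0 to 4.17% with a median of 0.344%, and 7 of 12 gastruloids held such cells. Its highest gastruloid held 4 cells with no marker UMI, and without such cells the range was 0 to 2.31%, the median 0.187% and the number of gastruloids 6. At day 4.5 of MULTI-seq 3 it ran from 0 to 0.897% with a median of 0, and 7 of 16 held them. Without cells lacking a marker UMI the highest was 0.855%, 6 of 16 held Endothelium and the mean was 0.191 ± 0.285% (SD, n = 16). At day 5 it ran from 0 to 2.65% (median 0.677%, 17 of 24) in MULTI-seq 1 and from 0 to 2.47% (median 1.14%, 15 of 16) in MULTI-seq 3. In MULTI-seq 3 the groups of days 4.5 and 5 overlapped.

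**Figure D3:**
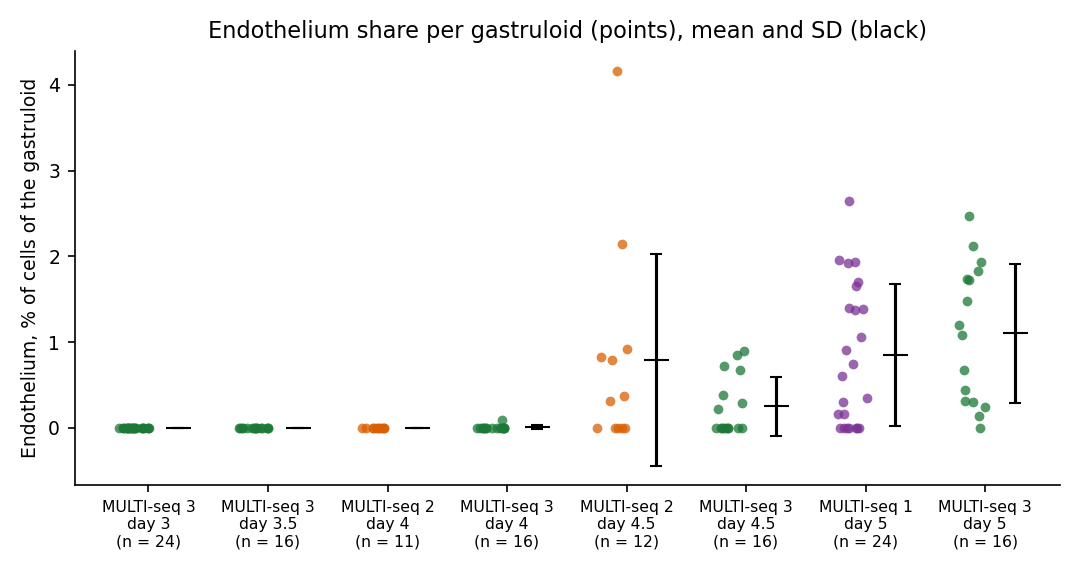
Endothelium as a percent of all cells of each gastruloid (points) with the group's mean and SD (black), by experiment and day, for gastruloids with at least 30 cells. Days 3 to 4 lie at or near 0, and the spread within a group at days 4.5 and 5 is as wide as the differences between groups.

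The share was then compared between days that shared a pool. In MULTI-seq 3 it was 0 ± 0% (SD, n = 16) at day 3.5 and 0.00589 ± 0.0235% (n = 16) at day 4 (permutation test, p = 1, adjusted p = 1). It was 0.252 ± 0.343% (SD, n = 16) at day 4.5 and 1.1 ± 0.81% (n = 16) at day 5, higher by 0.852 percentage points (two-sided permutation test, p = 0.00073, adjusted p = 0.00383 over 21 clusters). Of the 16 day 5 gastruloids 15 lay above the day 4.5 median. In this comparison 6 of the 21 clusters (28.6%) were called. In MULTI-seq 2 the mean was 0 ± 0 at day 4 (n = 11) and 0.795 ± 1.23% (SD, n = 12) at day 4.5 (permutation test, p = 0.0111, adjusted p = 0.0359, with 34.8% of 23 clusters called), but 3 gastruloids held 75% of the 24 cells. By the same permutation test that call was lost without lane 2 (adjusted p = 0.151), without lane 3 (adjusted p = 0.123) and with gastruloids of at least 100 cells (adjusted p = 0.181). It was also lost when all cells with an endothelial embryo name, in or outside the cluster, took the cluster's place (permutation test, adjusted p = 0.0717).

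Differences between experiments at the same day were within the spread of gastruloids. At day 5 the mean was 0.846 ± 0.826% (SD, n = 24) in MULTI-seq 1 and 0.259 points higher in MULTI-seq 3 (permutation test, p = 0.33, adjusted p = 0.594, with 1 of 18 clusters, or 5.56%, called). At day 4.5 MULTI-seq 3 was 0.542 points lower than MULTI-seq 2 (permutation test, p = 0.083, adjusted p = 0.261, with none of 22 clusters called). Within groups the variance between gastruloids was 2.85 times that of binomial sampling in MULTI-seq 1 day 5, 3.36 times in MULTI-seq 3 day 5, 3.1 times in MULTI-seq 2 day 4.5 and 1.16 times in MULTI-seq 3 day 4.5.

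Kdr, Etv2 and Cdh5 were also measured in the cells outside Endothelium. In MULTI-seq 3 the mean Kdr level of all other cells of a gastruloid was 1.36 ± 1.43 CPM (SD, n = 24) at day 3 and 11.8 ± 12.5 CPM (n = 16) at day 4, when 1 Endothelium cell was found, and 2.91 ± 5.07 CPM (n = 16) at day 5. In MULTI-seq 2 it was 4.61 ± 4.39 CPM (SD, n = 11) at day 4 and 9.78 ± 12.9 CPM (n = 12) at day 4.5. Etv2 was between 4.74 and 7.31 CPM on average over the 5 days of MULTI-seq 3, near its background of 5.99 CPM in Late Spinal Cord, which should lack it. Kdr was at 0.217 CPM in that cluster. Cdh5 was highest at day 4, with 0.261 ± 0.141 CPM (SD, n = 16).

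Across gastruloids the Endothelium share went with the shares of other clusters. For each partner the share of Endothelium was taken among cells outside the partner, and 20 relations (5 partners in 4 groups) were computed with permutation p-values adjusted over the 20. In MULTI-seq 1 day 5 (n = 24) the relation to Mature Somites had r = 0.892 and rho = 0.915 (both adjusted p = 6.67e-05, from the smallest permutation p that 100000 resamples can give, 1e-05), and r was 0.855 without the 2 most extreme gastruloids. To Mature Endoderm it had r = 0.795 and rho = 0.858 (adjusted permutation p = 6.67e-05 for both). To the 6 neural clusters together it had r = -0.795 and rho = -0.824 (adjusted permutation p = 6.67e-05 for both). Without the 2 extremes these were 0.7 and -0.77. The relation to Cardiopharyngeal Mesoderm rested on 2 gastruloids, since r was 0.532 with them (adjusted permutation p = 0.0319) and -0.259 without, and rho was 0.112 (adjusted permutation p = 0.601).

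The day 5 gastruloids of MULTI-seq 3 (n = 16) gave r = 0.738 and rho = 0.688 for Mature Somites (adjusted permutation p = 0.0052 and 0.00862), and r = 0.65 and rho = 0.768 for Mature Endoderm (adjusted permutation p = 0.0133 and 0.00284). For the neural clusters r was -0.442 (adjusted permutation p = 0.102), or -0.753 with all cells as the denominator (adjusted permutation p = 0.00347). The Vegfa level of the other cells was related to the share in this group (r = 0.745, rho = 0.718, adjusted permutation p = 0.00364 and 0.00586) and in MULTI-seq 1 day 5 (r = 0.692, rho = 0.737, adjusted permutation p = 0.0007 and 0.0003). Without the 2 extremes r was 0.679, 0.513 and -0.539 for these 3 clusters, and 0.709 and 0.645 for Vegfa in the 2 groups. Vegfa was itself highest in Somites, and its part in the relation beside that of the other shares was not tested.

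At day 4.5 the relations were less even. In MULTI-seq 3 (n = 16) Mature Endoderm gave r = 0.687 and rho = 0.667 (adjusted permutation p = 0.0104 and 0.0124), Vegfa r = 0.683 and rho = 0.671 (adjusted permutation p = 0.00806 and 0.0117) and Mature Somites r = 0.575 and rho = 0.544 (adjusted permutation p = 0.0341 and 0.0489). Their r without the 2 extremes was 0.488, 0.704 and 0.607. In MULTI-seq 2 (n = 12) Mature Endoderm gave rho = 0.825 (adjusted permutation p = 0.00586) and r = 0.608 (adjusted permutation p = 0.0623), or 0.769 without 2, and Mature Somites rho = 0.806 (adjusted permutation p = 0.0065) and r = 0.54 (adjusted permutation p = 0.0662), or 0.471 without 2. Vegfa gave r = 0.395 and rho = 0.566 in that group (adjusted permutation p = 0.239 and 0.0783). The relation to Cardiopharyngeal Mesoderm had r of 0.135, 0.448 and 0.267 in MULTI-seq 2 day 4.5 and days 4.5 and 5 of MULTI-seq 3 (adjusted permutation p = 0.694, 0.0908 and 0.411), and that to the neural clusters r = -0.465 in MULTI-seq 3 day 4.5 (adjusted permutation p = 0.0914). For the neural share of MULTI-seq 2 day 4.5 the gastruloids fell into separate clusters, and no pooled r is given.

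Because neural cells fill many gastruloids, the relations were recomputed among non-neural cells, a choice made after seeing the data. The relation to Mature Somites then had r = 0.0267 in MULTI-seq 3 day 5 (n = 16, adjusted permutation p = 0.964), 0.307 in MULTI-seq 3 day 4.5 (n = 14, adjusted permutation p = 0.421) and 0.447 in MULTI-seq 1 day 5 (n = 22, adjusted permutation p = 0.113), with p-values adjusted over 12 relations. In that last group rho was 0.475 (adjusted permutation p = 0.0663), r was 0.508 without the 2 extremes, and the permutation p before adjustment was 0.0378 for r and 0.0276 for rho. In MULTI-seq 2 day 4.5 (n = 9) it had r = 0.472 and rho = 0.577 (adjusted exact permutation p = 0.311 and 0.221). In MULTI-seq 1 day 5 the relation to Mature Endoderm passed the threshold (r = 0.75, rho = 0.815, adjusted permutation p = 0.00084 and 0.00024). For Mature Endoderm r was 0.477 in MULTI-seq 3 day 5 (adjusted permutation p = 0.123) and 0.626 in MULTI-seq 3 day 4.5 (adjusted permutation p = 0.0617), and in MULTI-seq 2 day 4.5 (n = 9) r was 0.615 and rho 0.748 (adjusted exact permutation p = 0.123 and 0.0663). Whether the relations to somites and to endoderm differ was not tested.

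**Figure D4:**
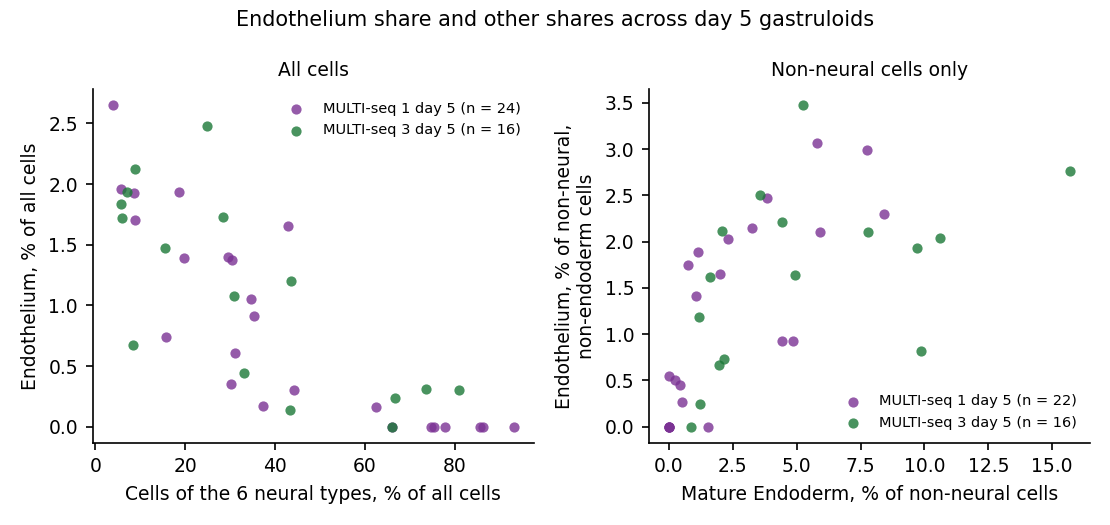
Left, Endothelium as a percent of all cells against the percent of cells of the 6 neural clusters, 1 point per day 5 gastruloid. Right, Endothelium among non-neural cells outside Mature Endoderm against Mature Endoderm among non-neural cells, for gastruloids with at least 30 non-neural cells. Those without endoderm, all of MULTI-seq 1, hold 0 to 0.546% Endothelium. Those of them at 0 have 52 to 99 non-neural cells, too few to tell a low share from 0.

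Cells called Negative were examined because they carry no gastruloid. In the lanes of MULTI-seq 1, 8 of 39 (20.5%, exact Clopper-Pearson 95% interval 9.3 to 36.5%), 2 of 30 and 1 of 19 Endothelium cells were Negative, against 1.26%, 0.768% and 0.787% of the other cells. In the 3 lanes of the MULTI-seq 3 pool of days 4.5 and 5 the shares were 5.45%, 8.16% and 7.55% against 1.25%, 2.99% and 2.97%. In both lanes of MULTI-seq 2 pool B none of the 14 and 16 Endothelium cells was Negative, where 2.77% and 4.28% of the other cells were. By its Negative share, among clusters with at least 30 cells, Endothelium took place 1 of 14 clusters in MULTI-seq 1, place 3 of 19 in MULTI-seq 3, behind PGCs at 45.5%, and place 19 of 20 in MULTI-seq 2 pool B. The Negative cells were shallower, with a median of 8249 UMIs against 14162 in assigned Endothelium cells of MULTI-seq 1, and 22837 against 31542 in MULTI-seq 3. None of the 22 Negative Endothelium cells of these pools lacked the markers, and over all 23 Negative cells Kdr was at 532 CPM and Etv2 at 557 CPM. The 18 Doublets held medians of 36495 UMIs in MULTI-seq 2 pool B and 47683.5 in MULTI-seq 3.

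Genes within Endothelium were compared over gastruloids, with UMIs summed per gastruloid and edgeR's quasi-likelihood test adjusted over all genes tested. The first question was whether day 5 Endothelium had the same expression in MULTI-seq 1 (8 gastruloids with at least 5 such cells, 56 cells) and MULTI-seq 3 (10 gastruloids, 112 cells). The sums held 74116 to 147221 and 191531 to 829592 UMIs. Kdr ran from 315 to 931 CPM (median 458) in MULTI-seq 1 and from 335 to 670 CPM (median 476.2) in MULTI-seq 3. Cdh5 ran from 79.4 to 283 CPM (median 169) and from 57.4 to 255 CPM (median 204). Etv2 ran from 150 to 715 CPM (median 312) and from 97.9 to 752 CPM (median 227). For all 3 the groups overlapped, and the log2 differences (MULTI-seq 3 minus MULTI-seq 1) were -0.0014 ± 0.16, 0.19 ± 0.25 and -0.12 ± 0.35 (SE), with edgeR adjusted p of 0.997, 0.659 and 0.866.

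**Figure D5:**
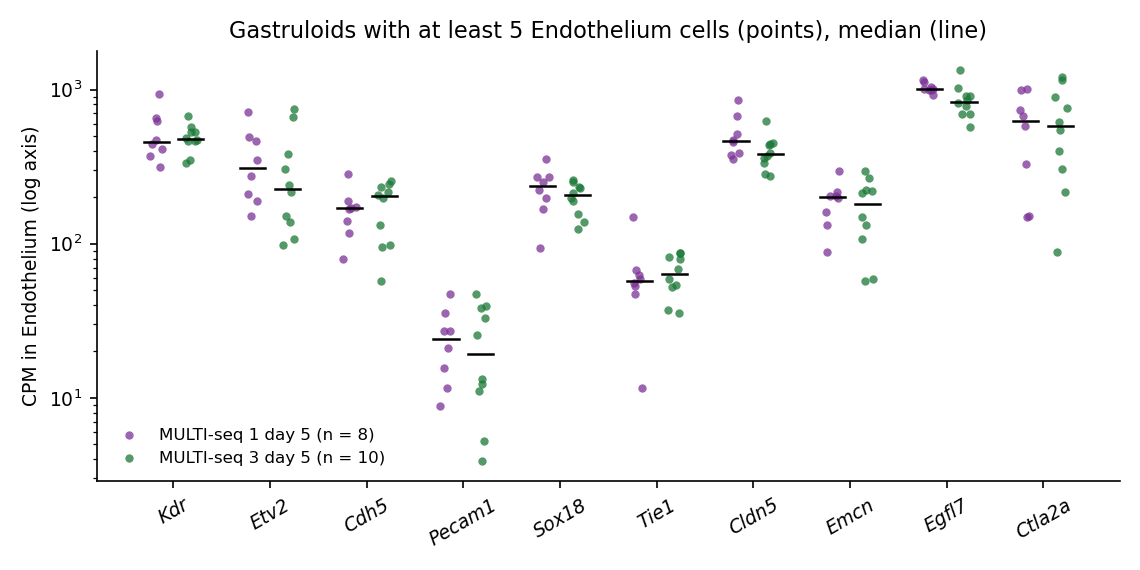
CPM of 10 genes in the Endothelium cells of each day 5 gastruloid with at least 5 such cells (points, log axis) and the median of each group (line). The 8 gastruloids of MULTI-seq 1 and the 10 of MULTI-seq 3 overlap for every gene shown.

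Across all genes 693 of 3428 (20.2%) differed, 374 higher and 319 lower in MULTI-seq 3. Of these, 89 of the higher genes did not reach the filter on low counts (44.8 CPM in at least 8 gastruloids) in MULTI-seq 1 alone, and 69 of the lower ones not in MULTI-seq 3 alone, and the calls of those genes support no difference. The balance depended on the setting, with 617 higher and 126 lower with no filter on low counts. It was 219 and 88 without MULTI-seq 1 lane 1, 151 and 52 without its lane 2, and 260 and 174 without MULTI-seq 3 lane C. Each setting tested another set of genes. Leaving out a lane also took gastruloids below 5 cells. MULTI-seq 1 then kept 4 gastruloids without lane 1 and 3 without lane 2, and MULTI-seq 3 kept 6 without lane C. Beside the 20.2% of all genes, none of 15 endothelial transcription factors tested (5 others were too low) and none of 8 receptors was called. Nor was any of 6 venous genes or of 11 basement membrane genes. Their median log2 differences were -0.13, -0.04, -0.12 and -0.20, beside -0.03 over all genes tested. Of 13 junction genes 1 was called. Esam, an adhesion molecule of endothelial tight junctions, was lower (from a range of 106 to 324 CPM to one of 65.9 to 164 CPM, log2 -0.58 ± 0.19, edgeR adjusted p = 0.0251). This edgeR call was lost without MULTI-seq 1 lane 1 (adjusted p = 0.433), lane 2 (adjusted p = 0.139), MULTI-seq 3 lane C (adjusted p = 0.0799) and with no filter on low counts (adjusted p = 0.151).

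The 10 with the smallest p among those higher in MULTI-seq 3 included 7 ribosomal protein genes, such as Rps28 (1240 to 1474 CPM against 3285 to 3905 CPM, log2 1.45 ± 0.06, edgeR adjusted p = 3.66e-18). Among those lower, 9 of 10 were encoded in the mitochondrial genome, such as mt-Nd4 (3106 to 4259 CPM against 797 to 1329 CPM, log2 -1.79 ± 0.09). The groups did not overlap for these genes. The mitochondrial share of a median Endothelium cell was 5.32% in MULTI-seq 1 and 2.03% in the MULTI-seq 3 pool, and that of the other cells 5.45% and 1.95%.

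Of 8 glycolysis and hypoxia genes tested, 6 were lower in MULTI-seq 3: Slc2a1, the glucose transporter GLUT1 (142 to 423 CPM against 72.6 to 143 CPM, log2 -1.04 ± 0.18, edgeR adjusted p = 5.68e-05), Pgk1 (log2 -0.88 ± 0.13), Gapdh (log2 -0.53 ± 0.09), Pkm (log2 -0.64 ± 0.10), Ldha (log2 -0.64 ± 0.12) and Bnip3 (log2 -0.88 ± 0.32). Over all genes tested 9.31% were lower. The list's median log2 difference was -0.64, and in Mature Somites of the same gastruloids 6 of its 12 tested members were lower and 2 higher, with a median of -0.22, where 19% of all genes were lower and 18.8% higher. Gapdh, Pgk1 and Slc2a1 were called in all 11 settings tried. Without MULTI-seq 1 lane 2, which left 3 gastruloids of MULTI-seq 1, Ldha and Pkm lost the call (edgeR adjusted p = 0.465 and 0.118). Bnip3 was called in 3 of 10 settings. Of 15 cell cycle genes 2 were lower, a share near that of all genes: Mcm3 (log2 -0.60 ± 0.16) and Pcna (log2 -0.53 ± 0.16), both lost without that lane (edgeR adjusted p = 0.269 and 0.828).

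The same difference between experiments was then measured in another cluster. In Mature Somites of the same gastruloids 4024 of 10640 genes (37.8%) differed, with Rps28 at log2 1.53, mt-Nd4 at -1.54, Slc2a1 at -0.73 and Pgk1 at -0.55. An interaction term, fitted with gastruloid as a block since each gastruloid gave both clusters, tested whether the difference was unequal in the 2 clusters. It called 0 of 9247 genes (edgeR, 0%), with 551 genes at an unadjusted p under 0.05, and the median standard error of the difference was 0.36 on the log2 scale. Experiment, library and lane cannot be told apart in this comparison.

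Day 5 was compared with day 4.5 within the MULTI-seq 3 pool. Gastruloids of at least 2 Endothelium cells were used, 4 of day 4.5 with 9 cells and 13 of day 5 with 120 cells, since higher minimums left no comparison. Of 4473 genes, 17 were higher and 6 lower at day 5 (0.514%). Mest, an imprinted gene of mesoderm, was at 10.4 to 179 CPM (median 124) at day 4.5 and 330 to 1434 CPM (median 840) at day 5. The groups did not overlap (log2 2.99 ± 0.39, edgeR adjusted p = 9.76e-05), and Mest was called in all 9 settings tried. It reached the filter on low counts only through day 5, where it was high, so its call is given as a value. Peg10, another imprinted gene, was at 10.4 to 58.4 CPM and 67.9 to 213 CPM (log2 2.21 ± 0.46, edgeR adjusted p = 0.0246).

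Sox18, Tie1, Icam2 and Ctla2a were among the genes called higher at day 5. Sox18 had a median of 43.7 CPM (10.4 to 97.4) at day 4.5 and 199 CPM (0 to 258) at day 5 (log2 2.23 ± 0.45). Tie1 was at 0 to 19.5 CPM at day 4.5, with a median of 0, and had a median of 54.3 CPM (0 to 87.6) at day 5. Icam2, an adhesion molecule, had medians of 15.3 and 89.1 CPM, and Ctla2a, at 0 to 44.9 CPM with a median of 0, had a median of 550 CPM at day 5. Each of these 4 had an edgeR adjusted p of 0.0246, and the groups overlapped, with the lowest day 5 gastruloid at 0. The filter on low counts asked for 39.2 CPM in at least 4 gastruloids. Of the 17 genes higher at day 5, 14 did not reach this in all 4 day 4.5 gastruloids, among them Mest, Peg10 and these 4, so they could not have passed without day 5, where they were high. Their calls are given as values, and the list counts that follow support no rise. With no filter Peg10, Sox18, Tie1, Icam2 and Ctla2a were also called (edgeR adjusted p from 1.86e-06 to 0.00188). These too are given as values, since the genes were picked from the filtered calls. Of the tested genes of each list, 1 of 15 transcription factors, 1 of 8 receptors and 1 of 14 junction genes were called, with median log2 differences of 0.64, 0.64 and 1.40 beside 0.02 over all genes tested.

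The 4 genes Kdr, Etv2, Tal1 and Cdh5 were not called in this comparison. Kdr was at 213 to 647 CPM (median 453) at day 4.5 and 23.7 to 887 CPM (median 470) at day 5 (log2 0.12 ± 0.31, edgeR adjusted p = 0.913). For Etv2 the log2 difference was -0.45 ± 0.52 (edgeR adjusted p = 0.774) and for Tal1 -1.40 ± 0.42 (edgeR adjusted p = 0.12). Cdh5 had medians of 27.4 and 132 CPM (log2 2.08 ± 0.65, edgeR adjusted p = 0.144) and was called in 2 of 9 settings, with the endothelial embryo names (edgeR adjusted p = 0.016) and with no filter on low counts (edgeR adjusted p = 0.0136). This comparison rests on few cells: leaving out each of the 4 day 4.5 gastruloids in turn gave 40, 2, 5 and 1 genes, Peg10, Sox18, Tie1, Icam2 and Ctla2a lost the call without 3 of these 4, and 2 of the 9 day 4.5 cells carried no marker UMI. With DESeq2 68 genes were called, without lane B 71, and with the endothelial names of the embryo mapping 76, where Sox18 (edgeR adjusted p = 0.00059) and Tie1 (edgeR adjusted p = 0.00609) remained.

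In Mature Somites of these gastruloids 585 of 11442 genes (5.11%) differed between the days. The interaction called 52 of 10674 genes (0.487%) as unequal in the 2 clusters. For 16 of the 52 the Endothelium sums of each day alone reached the filter on low counts, and for 29 others only those of day 5 did, so that the calls of the latter are values that support no unequal change. Among the 29 was Mest, with 36 UMIs at day 4.5 and 3878 at day 5 in Endothelium and a log2 difference of 0.87 in Mature Somites (unequal by 2.28 ± 0.33). Among the 16 was the intermediate filament gene Vim, which had a log2 difference of 1.57 in Endothelium and -0.08 in Mature Somites (unequal by 1.88 ± 0.31, edgeR adjusted p = 0.000374). Its difference within Endothelium was called in 7 of 9 settings (log2 1.19 to 2.39). The interaction was run in the reported setting alone, with 4 gastruloids of day 4.5, so its dependence on the setting was not tested. For Sox18, Tie1, Icam2 and Ctla2a the interaction was not called (edgeR adjusted p from 0.447 to 0.975), and none of the 4 passed the filter on low counts in Mature Somites alone.

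At day 4.5, MULTI-seq 3 (4 gastruloids, 9 cells) was set beside MULTI-seq 2 (5 gastruloids, 22 cells) in the same way. Of 1566 genes 34 (2.17%) differed, 16 higher and 18 lower in MULTI-seq 3. Of these, 4 of the higher genes did not reach the filter on low counts in MULTI-seq 2 alone and 3 of the lower ones not in MULTI-seq 3 alone, and their calls support no difference. Pfn1, the actin-binding profilin, was at 93.7 to 264 CPM in MULTI-seq 2 and 2150 to 3130 CPM in MULTI-seq 3 (log2 3.81 ± 0.23, edgeR adjusted p = 1.05e-08), without overlap, and mt-Atp6 was at 9880 to 14436 CPM and 2551 to 5003 CPM (log2 -1.80 ± 0.18). Without lane 2 of MULTI-seq 2, which left 3 of its gastruloids, the count was 19, and without 1 of the 4 MULTI-seq 3 gastruloids 21. Neither Kdr (log2 -0.20 ± 0.31, edgeR adjusted p = 0.796) nor Etv2 (log2 0.98 ± 0.45, edgeR adjusted p = 0.331) was called, nor any of the 7 transcription factors tested. Over 16 settings Etv2 was called in 1, with log2 differences from 0.468 to 1.56. In Mature Somites 17.3% of 9115 genes differed, with Pfn1 at log2 3.53, and the interaction called 1 of 8720 genes (0.0115%). This was Fst, which encodes the activin antagonist follistatin and passed the filter on low counts in Mature Somites but not in Endothelium (7 and 66 UMIs in the 2 groups), so its call says nothing of a change in Endothelium.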

How the data were processed

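Single-cell 3′ RNA-seq counts of 18 lanes were read from the authors' deposited matrices, which hold whole-number UMI counts per gene and cell barcode. The submitters' processing notes name Cell Ranger 6.0.0, Seurat and the mouse build mm10. Cluster, gastruloid barcode call, day, embryo mapping and cell-cycle call of each cell were taken from the authors' deposited cell table, and 9 cells of the table without a matching barcode were left out. Doublet removal was not repeated: cells called Doublet by the authors were kept in the description and left out of tests over gastruloids, as were Negative cells. No step changed the deposited counts, and no ambient RNA correction was made. The members and gene lists were chosen with earlier results of these data known.

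The unit of replication was the gastruloid. All gastruloids came from 1 cell line, and p-values measure the spread between gastruloids of the same experiment, and lanes were summed. Shares used gastruloids with at least 30 cells and two-sided permutation tests (100000 resamples), with Benjamini-Hochberg adjustment over clusters with a mean share of at least 0.1%. Levels were CPM of summed UMIs. Intervals and floors (3 counts over the total) cover counting error only. In each gastruloid Endothelium UMIs were summed and tested with edgeR 4.0.16 in R 4.3.3 (filterByExpr, TMM, quasi-likelihood, Benjamini-Hochberg at 0.05). A minimum of 10 Endothelium cells per gastruloid was set first, but it left too few gastruloids in every comparison (at least 3 per group were required). A minimum of 5 cells was used instead for day 5 between experiments. The other comparisons used at least 2 cells, a choice made after seeing the data. On simulated counts with 200 changed genes edgeR recovered 77%, 47% and 56% of genes changed by log2 1, and 82%, 80% and 86% of those changed by log2 2, in the comparisons of 3428, 4473 and 1566 genes, and 6.47%, 4.51% and 5.33% of calls were false. The simulated counts used the spread that edgeR itself estimated, and only genes that had passed the filter on low counts. These rates therefore hold for edgeR's own model and cannot show errors that arise from the filter.

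Named genes were the list members, the 15 leading genes, and in each gene comparison those among the 10 smallest p in each direction. Alternatives were DESeq2 1.42.0, no filter on low counts, other minimums of cells, embryo names in place of the cluster, other denominators, and leaving out each lane or, in small groups, each gastruloid. Scripts used Python 3.11.15, numpy 2.4.6, pandas 2.3.3, scipy 1.17.1 and matplotlib 3.10.9.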

Additional observations from a re-analysis of the deposited data

Results flagged for a closer look

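In 2 of 20 groups of gastruloid values 1 gastruloid stood apart from the others, and chance alone flags about 1 in 20 such groups. Cldn5 was at 624 CPM in the Endothelium cells of the highest day 5 gastruloid of MULTI-seq 3, with the next at 448 CPM and the lowest at 277 CPM (n = 10). Tie1 was at 148 CPM in the highest day 5 gastruloid of MULTI-seq 1, with the next at 67.9 CPM and the lowest at 11.7 CPM (n = 8).

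The difference between groups was unequal in Endothelium and Mature Somites for 52 genes between days 4.5 and 5 of MULTI-seq 3, by edgeR's interaction term. These included Vim (unequal by log2 1.88 ± 0.31), whose Endothelium sums reached the filter on low counts on each day alone. No other setting of the interaction was run, and day 4.5 gave 4 gastruloids. Mest, Vamp5 (log2 2.86 ± 0.43) and Gap43 (log2 3.44 ± 0.60) reached it in Endothelium only through day 5, where they were high, so their values support no unequal change. Between MULTI-seq 2 and MULTI-seq 3 at day 4.5 it was unequal for 1 gene, Fst (log2 2.60 ± 0.55), which passed the filter on low counts in Mature Somites but not in Endothelium, so this says nothing of a change in Endothelium.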

How the results depend on the processing

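Of 56 alternatives for the differences in share, 52 were counted as keeping direction and side of the threshold. The count includes the comparisons with day 4 of MULTI-seq 3, where 1 Endothelium cell left no room for a call. In leave-one-out fits their difference fell as low as 0, which has no direction. The rise at day 4.5 of MULTI-seq 2 lost its call at 0.867 points with at least 100 cells, 0.735 with embryo names, 0.799 without lane 2 and 0.784 without lane 3. Of 52 for the relations, 43 were kept. With all cells as the denominator r was 0.511 for Mature Somites in MULTI-seq 3 day 4.5 (call lost) and -0.753 for neural clusters in MULTI-seq 3 day 5 (call gained). Among non-neural cells calls were lost in MULTI-seq 1 day 5 for Cardiopharyngeal Mesoderm (0.476) and Mature Somites (0.447), in MULTI-seq 3 day 4.5 for Mature Endoderm (0.626) and Mature Somites (0.307), and in MULTI-seq 3 day 5 for Mature Endoderm (0.477) and Mature Somites (0.0267), and the sign changed for Cardiopharyngeal Mesoderm in MULTI-seq 2 day 4.5 (-0.0171). The cause was not tested.

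Gene counts kept within 1.5 times in 19 of 33 alternatives. These include a fit that could not differ: without MULTI-seq 3 lane B, day 4.5 between experiments gave the reported fit again. That fit is also counted among the alternatives for named genes. Between experiments at day 5 the gene counts ran from 203 to 616 when lanes were left out. Those fits kept 3 to 8 gastruloids of MULTI-seq 1 and 6 to 10 of MULTI-seq 3. Without a filter on low counts 617 genes were higher and 126 lower. Between days 4.5 and 5 there were 68 with DESeq2, 89 without the filter, 76 with embryo names, and 1 to 71 when a lane or gastruloid was left out. At day 4.5 between experiments there were 52 without the filter and 19 to 39 in those leave-one-out fits. Of 650 alternatives for named genes 561 were kept. Signs changed for Kdr, Etv2 and Cdh5, in fits where they were not called. At day 5 between experiments the log2 difference of Cdh5 was -0.0686 with at least 2 cells and -0.18 to 0.50 without 1 lane, that of Etv2 0.0516 without the filter and -0.193 to 0.0948 without 1 lane, and that of Kdr 0.0215 with DESeq2, 0.0492 with embryo names, 0.18 without the filter and -0.52 to 0.15 without 1 lane. Kdr ran from -0.11 to 0.39 between days and from -0.46 to 0.17 at day 4.5 in leave-one-out fits.

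Minimums of 10 and 20 Endothelium cells left too few gastruloids and were not run, nor was day 5 against day 4.5 without lane A or lane C. No paired analysis was possible because lane numbers are technical splits of a pool and gastruloid barcodes link no samples across groups, and the replicate block was the gastruloid in the interaction fits alone. Depth limits the day 4.5 comparisons, with 9 cells in MULTI-seq 3.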
